A study of Homo sapiens with 4 samples.

Results

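The AP-1 family genes taken here are 9, namely FOS, FOSB, FOSL1, FOSL2, JUN, JUNB, JUND, BATF and ATF3, and they were described by the GATA2 ChIP-seq peaks that overlapped each gene body of GENCODE release 44 extended by 50 kb on both sides (hg38). By this rule 28 of 31777 peaks of asynchronous cells and 4 of 1648 peaks of mitotic cells belonged to them. ChIP-seq sequences the DNA pulled down with an antibody, here against endogenous GATA2, and a peak is a stretch where the reads pile up. All cells were K562, an established chronic myeloid leukaemia line, and were fixed with disuccinimidyl glutarate followed by formaldehyde. The asynchronous library came from cycling cells without drug arrest, and the mitotic library from cells arrested with nocodazole, fixed, sorted for MPM-2 staining in several rounds and pooled, with a small share of asynchronous cells left according to the labels. There was 1 library for each condition, so the conditions cannot be compared beyond these 2 libraries and no p-value is given. The deposited lists give only the position of each peak. The depth behind them is unknown, and a stretch without a mitotic peak may hold GATA2 under the limit of detection.

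AP-1 is a dimer of basic leucine zipper proteins that binds the sequence TGACTCA, and with some partners the cyclic AMP response element TGACGTCA. The FOS proteins (FOS, FOSB, FOSL1 and FOSL2) do not pair with themselves and need a JUN partner, while the JUN proteins (JUN, JUNB and JUND) also form dimers among themselves. BATF lacks a transactivation domain and competes for JUN partners, and ATF3 is a stress-induced member that can repress. FOS, FOSB, JUN, JUNB and ATF3 are immediate-early genes, switched on within minutes of growth factor or stress signals through MAP kinases. In blood cells AP-1 takes part in myeloid and megakaryocytic differentiation, and FOS is used together with GATA2 and GFI1B to turn fibroblasts into hemogenic cells.

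All 9 genes had an asynchronous GATA2 peak within 50 kb, and 3 of them, FOSL2, JUN and ATF3, also had a mitotic one. Among all 20033 protein-coding genes given windows by the same rule, 76.0% had an asynchronous and 11.7% a mitotic peak. The share of members with a mitotic peak was 33.3%, with a 95% exact binomial interval of 7.49% to 70.1% that includes the share of all genes. All 4 mitotic peaks overlapped an asynchronous peak by at least 1 base, as did 97.5% of the mitotic list. Such sites are called bookmarked here. Counted by asynchronous peaks, 3 of 28 were bookmarked, or 10.7% (2.27% to 28.2%), against 5.04% of the whole list. At this number of peaks a difference from the list was not detectable. These intervals cover counting error only.

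The sequences of 3 mitotic peaks are shown first because they are stretches where GATA2 was called in both conditions. Each is the hg38 reference on the plus strand, limited to the central 300 bases where the peak was longer. Capitals mark the GATA strings AGATAA or AGATAG or TGATAA or TGATAG on either strand. None of the 3 held TGACTCA.
FOSL2 mitotic peak, chr2:28366646-28366945: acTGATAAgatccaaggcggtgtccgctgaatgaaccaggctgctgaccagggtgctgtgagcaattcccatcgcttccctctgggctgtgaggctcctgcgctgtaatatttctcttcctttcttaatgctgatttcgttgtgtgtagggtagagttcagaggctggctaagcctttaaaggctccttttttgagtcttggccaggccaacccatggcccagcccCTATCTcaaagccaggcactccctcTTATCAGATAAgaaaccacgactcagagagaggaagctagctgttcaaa
JUN mitotic peak, chr1:58754978-58755203: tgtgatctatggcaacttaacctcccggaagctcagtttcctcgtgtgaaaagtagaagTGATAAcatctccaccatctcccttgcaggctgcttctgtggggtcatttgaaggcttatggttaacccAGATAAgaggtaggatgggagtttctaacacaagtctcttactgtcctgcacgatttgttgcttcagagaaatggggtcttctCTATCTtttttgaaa
ATF3 mitotic peak, chr1:212635602-212635901: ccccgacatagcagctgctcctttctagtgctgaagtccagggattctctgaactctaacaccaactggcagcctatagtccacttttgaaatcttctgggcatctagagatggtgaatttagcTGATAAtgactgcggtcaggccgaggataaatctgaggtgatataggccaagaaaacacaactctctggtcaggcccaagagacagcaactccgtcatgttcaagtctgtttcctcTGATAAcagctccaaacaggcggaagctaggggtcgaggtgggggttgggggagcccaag

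A GATA string was present in 90.4% of all asynchronous peaks when up to 300 central bases were searched, so its presence alone does not set these sites apart from the list. The strings differed in their arrangement. In the FOSL2 sequence, 2 GATA strings in opposite orientation shared 1 base and formed TTATCAGATAA at chr2:28366897-28366907. Overlapping GATA strings of this kind were found in 3.77% of the asynchronous list (3.56% to 3.99%) and in 2.67% of the mitotic list (1.95% to 3.57%). The ATF3 sequence held CTGTTTCCTCTGATAA, a match to the GATA:E-box composite, in which CTG and GATAA are separated by 8 bases and which GATA factors and TAL1 can bind together. Searched over whole peaks, that composite was found in 13.1% of all mitotic and 8.55% of all asynchronous peaks. Within up to 300 central bases it was found in 7.37% of all asynchronous peaks. The JUN sequence held 3 GATA strings and no composite.

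**Figure D1:**
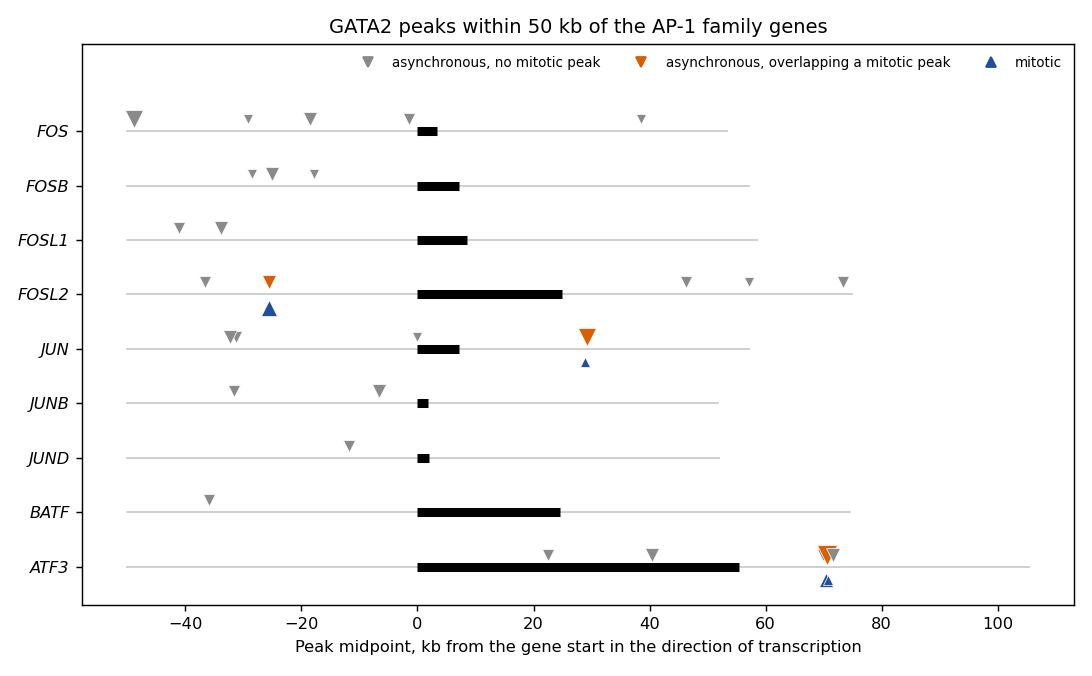
GATA2 peaks around each AP-1 family gene, with the horizontal axis in kb from the gene start along the direction of transcription, the black bar the gene body and the grey line the window of 50 kb on each side. Triangles are peak midpoints, larger for wider peaks. The 3 bookmarked asynchronous peaks and the 4 mitotic peaks lay outside the gene bodies of FOSL2, JUN and ATF3.

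The 4 mitotic peaks had no common position relative to their genes. FOSL2 encodes FRA2, a FOS protein without the transactivation domains of FOS, and lies on the plus strand at chr2:28392448-28417317 (ENSG00000075426). Its mitotic peak at chr2:28366491-28367099 was intergenic, 25.3 kb upstream of the gene. JUN lies on the minus strand at chr1:58776845-58784048 (ENSG00000177606), and its mitotic peak at chr1:58754978-58755203 lay 21.6 kb beyond the 3′ end, in intron 1 of an lncRNA gene. ATF3 lies on the plus strand at chr1:212565334-212620777 (ENSG00000162772). Its 2 mitotic peaks were intergenic beyond the 3′ end, the wider of them at chr1:212635530-212635973, 14.8 kb away. No mitotic peak lay in a promoter or gene body of a member.

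The mitotic and asynchronous intervals of the same sites did not match in width. At FOSL2 the mitotic peak was 609 bp wide and the asynchronous peak 525 bp, and the mitotic one reached beyond it by 43 bp on one side and 41 bp on the other. A mitotic peak wider than the asynchronous peak under it was uncommon, at 2.55% of all 1606 bookmarked mitotic peaks. The midpoints of the FOSL2 pair were 1 bp apart. At JUN the mitotic peak of 226 bp lay inside an asynchronous peak of 741 bp, towards one edge, with 444 bp of the wider peak on one side and 71 bp on the other. At ATF3 both mitotic peaks, of 444 and 206 bp, lay inside a single asynchronous peak of 932 bp. Lying wholly inside an asynchronous peak was the usual case, at 90.4% of the 1606 bookmarked mitotic peaks. Only 8 of the 1600 bookmarked asynchronous peaks of the whole list, 0.500%, overlapped more than 1 mitotic peak.

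ATF3 had the most closely packed peaks of the family. Of the 28 asynchronous peaks of the family, 5 lay within 1 kb of another, 3 of them at ATF3 and 2 upstream of JUN. In the whole list 12.7% did, and the difference was not tested. Beyond the 3′ end of ATF3, 3 asynchronous peaks stood within 2182 bp, at chr1:212634966-212637147, separated by 154 and 185 bp. Their widths were 398, 932 and 513 bp, and only the middle one was bookmarked. The nearest protein-coding TSS to these peaks was that of GARIN4, and the last of them and the bookmarked one also fell within 50 kb of BATF3, a relative of BATF. The other 2 asynchronous peaks of ATF3 lay in introns of the gene, at chr1:212587641-212587955 (315 bp) and chr1:212605471-212605958 (488 bp). The first of these held a GATA:E-box composite, CTGTCCTTTAAGATAA on the minus strand.

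FOSL2 and JUN each had further asynchronous peaks without a mitotic counterpart. The other 4 peaks of FOSL2 were 214 to 350 bp wide, 1 of them upstream and 3 downstream of the gene, and the downstream peaks were nearest to the TSS of PLB1. JUN had 2 peaks of 412 and 444 bp 31.0 and 32.1 kb upstream, neighbours in intron 1 of the lncRNA gene LINC01135. The 444 bp peak was GC-rich at 66.7% and held no GATA string.

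JUN was the only member with a peak over its annotated start. This asynchronous peak, chr1:58784030-58784215, was 186 bp wide, with only 4.29% of the list narrower, and was not bookmarked. Of 1084 asynchronous peaks over a protein-coding TSS in the whole list, 6.92% were. The part of the peak before the gene start is shown because it is the only core promoter of the family under a peak. It is printed on the minus strand, the sense strand of JUN, up to the base before the start, and capitals mark the GATA string.
JUN promoter peak, chr1:58784049-58784215: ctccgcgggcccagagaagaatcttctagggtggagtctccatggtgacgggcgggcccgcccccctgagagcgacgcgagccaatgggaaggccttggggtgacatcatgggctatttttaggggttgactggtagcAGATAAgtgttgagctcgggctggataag

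The GATA string AGATAA in it lies 29 to 24 bp before the annotated start. Neither TGACTCA nor TGACGTCA was present. The related string TGACATCA, known as an AP-1 site of the JUN promoter and looked for after this sequence had been read, lies 66 to 59 bp before the start. It was found in 2.61% of all RefSeq promoters (300 bases around the start) and 2.19% of all asynchronous peaks. Promoters in RefSeq (GRCh38.p14) were matched for 8 of the 9 members, all but FOSL1, with 2 for ATF3. Only that of JUN overlapped an asynchronous peak, against 3.45% of all 35116 promoters, and none overlapped a mitotic peak. A GATA string was found in the promoters of JUN and BATF, against 25% of all promoters. TGACTCA was found in that of FOSL2, against 4.95%, and TGACGTCA in that of JUND, against 1.85%.

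FOS had as many asynchronous peaks as FOSL2 and ATF3, 5, and no mitotic peak. FOS, the classical dimer partner of JUN, lies on the plus strand at chr14:75278826-75282230 (ENSG00000170345), and all 5 peaks were nearest to its TSS, with no other protein-coding gene in the window. Their widths were 760, 230, 510, 410 and 237 bp in genomic order. The first 4 lay 48.5, 29.0, 18.3 and 1.28 kb upstream and the last 34994 bp downstream. The peak of 760 bp at chr14:75229607-75230366 was wider than 93.7% of the list and wider than the bookmarked peak of JUN. It was the only asynchronous-only peak of the family at or above the median width of all bookmarked asynchronous peaks, 674 bp, and 8.34% of all asynchronous-only peaks were that wide. Of the whole list's peaks of 600 to 999 bp, 18.6% were bookmarked (95% exact binomial interval 17.5% to 19.8%).

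The peak closest to the start of FOS, chr14:75277137-75277546, was the most GC-rich of the family with 73.7%, where the median of the 28 peaks was 50.6% and that of the list 44.1%. Its central 300 bases are shown on the plus strand, with the GATA string in capitals, as the peak nearest to the start of a FOS protein gene, and it was chosen for printing after its values were seen.
FOS upstream peak, chr14:75277192-75277491: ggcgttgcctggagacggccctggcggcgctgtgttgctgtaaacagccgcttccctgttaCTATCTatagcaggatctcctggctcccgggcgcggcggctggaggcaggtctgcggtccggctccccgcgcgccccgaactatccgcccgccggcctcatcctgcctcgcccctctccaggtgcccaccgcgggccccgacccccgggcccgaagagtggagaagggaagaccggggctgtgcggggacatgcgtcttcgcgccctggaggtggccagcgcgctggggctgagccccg

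The single GATA string, AGATAG on the minus strand at chr14:75277253-75277258, was the only match there to the strings searched. The peak 29.0 kb upstream of FOS held no GATA string but 2 copies of AACCACA, the core that RUNX factors bind. The peak 18.3 kb upstream held 5 GATA strings in 510 bp, as many as the bookmarked peaks of JUN and ATF3, and was not bookmarked. Of the whole list 5.04% of asynchronous peaks were bookmarked, and a link between string number and bookmarking was not tested.

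The remaining members had 1 to 3 asynchronous peaks and no mitotic peak. FOSB, a FOS protein known for its stable splice form in neurons, lies on the plus strand at chr19:45467995-45475179 (ENSG00000125740). It had peaks of 181, 431 and 247 bp, 17.7 to 28.4 kb upstream at chr19:45439395-45450257, all within the gene body of ERCC1 and nearest to its TSS. FOSL1, which encodes FRA1, lies on the minus strand at chr11:65892049-65900573 (ENSG00000175592). It had peaks of 528 and 314 bp, 33.5 and 40.9 kb upstream and nearest to the TSS of TSGA10IP. JUNB, a JUN protein that restrains proliferation of myeloid cells, lies on the plus strand at chr19:12791486-12793315 (ENSG00000171223). It had peaks of 280 and 534 bp, 31.5 and 6.42 kb upstream, both nearest to the TSS of HOOK2. JUND, on the minus strand at chr19:18279694-18281622 (ENSG00000130522), had 1 peak of 314 bp, 11.7 kb upstream. BATF, on the plus strand at chr14:75522455-75546993 (ENSG00000156127), had 1 peak of 376 bp, 35.7 kb upstream, which also lay within 50 kb of JDP2, another AP-1 dimer partner. For FOSB, FOSL1 and JUNB no peak of the window was nearest to the member itself.

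The order of the members by asynchronous peaks was FOS, FOSL2 and ATF3 with 5 each, JUN with 4, FOSB with 3, FOSL1 and JUNB with 2 and JUND and BATF with 1. With 1 library there is no spread over samples, and neighbours in this order differ by at most 1 peak. The median of the members was 3 and that of all protein-coding genes 2 (quartiles 1 and 4), and 21.0% of genes had 5 or more. ATF3 was the only member with 2 mitotic peaks, and 1.68% of protein-coding genes had 2 or more. Both peaks of ATF3 lay inside the same asynchronous peak, and their nearest protein-coding TSS was that of GARIN4. Since genes with more asynchronous peaks more often had a mitotic one, each member was read beside genes with the same number. Of all genes with 4 asynchronous peaks 17.9% had a mitotic peak, and of those with 5 it was 22.7% (95% exact binomial interval 20.4% to 25.1%). Of those with 1 asynchronous peak it was 2.73%, of those with 2 it was 7.41%, and of those with 3 it was 13.1%. The median length of the member genes was 7204 bp, against 27471 bp for all protein-coding genes, and ATF3 was longer than that with 55444 bp. Per 100 kb of window the members together had 2.71 asynchronous peaks, and the median protein-coding gene had 1.41. The first value pools the windows and the second is a median over genes, so they are unlike measures. Single members ranged from 0.803 at BATF to 4.84 at FOS. Of all protein-coding genes, 65.7% were at least as dense as BATF and 7.02% at least as dense as FOS.

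Other genes had the same pairs of asynchronous and mitotic numbers as the members with a mitotic peak. The numbers of JUN, 4 and 1, were shared by 315 genes whose windows held none of these peaks, those of FOSL2, 5 and 1, by 252, and those of ATF3, 5 and 2, by 30. Among them, the genes with the most similar number of bases under asynchronous peaks were SPINK4 and PIK3C2A for JUN, FAM110A and CTR9 for FOSL2, and FLT4 and TESC for ATF3.

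**Figure D2:**
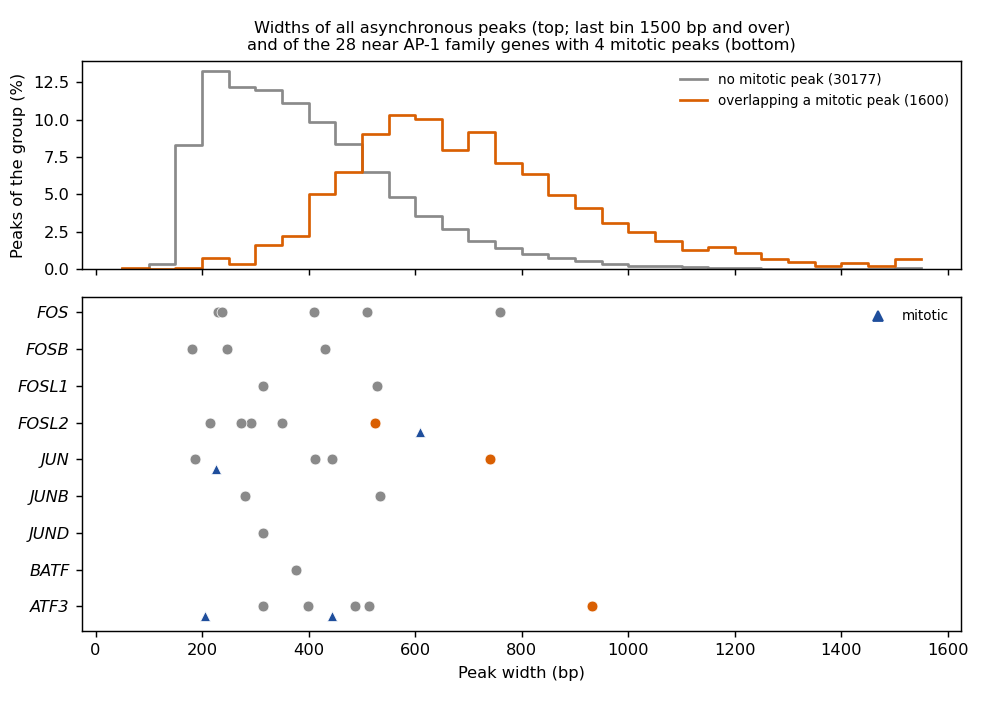
Top, widths in bp of all asynchronous peaks with and without a mitotic overlap, as a share of each group (%). Bottom, widths of the 28 asynchronous peaks (circles, orange where bookmarked) and the 4 mitotic peaks (blue triangles) by gene. The 3 bookmarked peaks of 525, 741 and 932 bp were the widest of FOSL2, JUN and ATF3, without a comparison with other genes.

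The 28 asynchronous peaks were 181 to 932 bp wide with a median of 387 bp, close to the median of 378 bp in the whole list. Within FOSL2, JUN and ATF3 the bookmarked peak was the widest asynchronous peak of its window. How often this holds for other genes with a mitotic peak is not given here, so it is not read as particular to these members. The widths of the bookmarked peaks, 525, 741 and 932 bp, overlapped those of the other 25 peaks, which ran from 181 to 760 bp with a median of 350 bp. Over the list, the medians were 674 bp for bookmarked and 367 bp for asynchronous-only peaks. FOSL2 had the narrowest bookmarked peak of the 3, and the peaks of 528 bp at FOSL1 and 534 bp at JUNB were slightly wider without being bookmarked. Of peaks of 400 to 599 bp, 5.26% were bookmarked in the whole list and 1 of 10 among the members, so a peak of this width was usually not bookmarked.

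Most peaks lay at a distance from the genes. Of the 28, 17 were upstream, 8 downstream and 3 over a gene body, 5 lay within 10 kb of the gene body and 14 within 25 kb. Promoters, taken as midpoints within 3 kb of a protein-coding TSS, held 4 of 28, or 14.3% (95% exact binomial interval 4.03% to 32.7%), against 20.5% of the list. These were the peak over the start of JUN, the peak next to FOS, the intronic peak of ATF3 2.71 kb from an annotated ATF3 start, and the peak of the FOSB window 468 bp from a start of ERCC1. None of the 4 was bookmarked, and 4.33% of promoter peaks of the whole list were. The member was the gene with the nearest TSS for 15 of the 28 peaks.

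The sequence content of the 28 peaks was compared with the list by strings searched on both strands. A GATA string was present in 26, or 92.9% (95% exact binomial interval 76.5% to 99.1%), against 93.0% of the list, with a median of 2 strings in both. TGACTCA was present in 2, or 7.14% (0.877% to 23.5%), against 13.0%, and TGACGTCA in none, which allows a share of up to 12.3%, against 0.274% of the list. The GATA:E-box composite was present in 3, or 10.7% (2.27% to 28.2%), against 8.55%. The ETS core AGGAAGT was present in 5 against 14.9% of the list, the RUNX core AACCACA in 4 against 13.6%, and the E-box CAGCTG in 5 against 24.1%. For each of these strings the interval of the members included the share of the list, so a difference was not detectable with 28 peaks.

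The only peaks of AP-1 family genes with the AP-1 string itself were the distal FOSL1 peak and the single JUND peak, neither of them bookmarked. Their central 300 bases are shown on the plus strand to set the AP-1 and GATA strings side by side, both in capitals.
FOSL1 distal peak, chr11:65941487-65941786: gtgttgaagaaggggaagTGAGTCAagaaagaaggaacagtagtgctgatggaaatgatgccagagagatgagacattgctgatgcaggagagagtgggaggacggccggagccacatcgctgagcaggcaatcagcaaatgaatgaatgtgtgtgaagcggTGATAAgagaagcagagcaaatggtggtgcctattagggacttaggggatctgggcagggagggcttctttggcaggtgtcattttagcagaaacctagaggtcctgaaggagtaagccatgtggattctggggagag
JUND peak, chr19:18293328-18293627: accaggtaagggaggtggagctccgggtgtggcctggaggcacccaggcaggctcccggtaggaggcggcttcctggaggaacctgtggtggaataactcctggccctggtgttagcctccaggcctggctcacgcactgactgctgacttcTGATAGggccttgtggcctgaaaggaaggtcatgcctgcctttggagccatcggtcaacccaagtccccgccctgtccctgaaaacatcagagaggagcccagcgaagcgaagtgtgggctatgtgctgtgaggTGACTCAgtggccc

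Both peaks had the same make-up, 1 GATA string and 1 AP-1 string with more than 100 bases between them. In the FOSL1 peak the strings were 137 bases apart and the AP-1 string stood 25 bases from the edge of the peak. In the JUND peak they were 128 bases apart and the AP-1 string stood 14 bases from the edge. TGACTCA was found in the 300 central bases of 10.0% of all asynchronous peaks.

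Related genes were counted by the same windows, by which 76.0% of all protein-coding genes had an asynchronous and 11.7% a mitotic peak. The other AP-1 dimer partners JDP2, BATF2, BATF3, ATF2 and ATF7 all had asynchronous peaks, 2 or 3 each, and none had a mitotic peak, although BATF3 shared 2 asynchronous peaks with ATF3, 1 of them bookmarked by mitotic peaks outside the BATF3 window. Of 15 kinases and factors upstream of FOS and JUN, 14 had an asynchronous peak. The largest number in this list was 15 at MAPK14, the kinase p38 alpha, without a mitotic peak. Of 9 other immediate-early genes, all had an asynchronous peak and 3 a mitotic peak. IER2 had 3 asynchronous and 1 mitotic peak, IER5 had 4 and 1, and NR4A1, an orphan nuclear receptor, had 3 and 1. Of all protein-coding genes with 3 asynchronous peaks 13.1% had a mitotic peak, and of those with 4 it was 17.9%. IER3 and DUSP1, a phosphatase of MAP kinases, had most asynchronous peaks in that list, 7 each. Of 12 known AP-1 target genes, 9 had an asynchronous and none a mitotic peak, with most at PLAUR, the urokinase receptor, which had 8. The medians of asynchronous peaks per gene were 3 for the AP-1 family, 3 for the dimer partners, 3 for the upstream genes, 4 for the immediate-early genes and 1 for the target genes, beside 2 for all protein-coding genes. Beside 5.04% of the whole list, the bookmarked share of asynchronous peaks was 8.11% (95% exact binomial interval 1.70% to 21.9%) for the immediate-early genes and 7.69% (0.195% to 36%) for the dimer partners, whose only bookmarked peak is the one shared with ATF3. For the target genes it was 0 of 26, which allows up to 13.2%. The intervals of these 3 lists include the share of the whole list. The share of the upstream genes is not reported here.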

How the data were processed

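GATA2 ChIP-seq peaks of asynchronous and mitotic K562 cells were used, 1 library each; the input libraries were not analysed here. The deposited values are genomic positions in bp, in 3 columns. The authors aligned reads to hg38 with BWA 0.7.12, kept uniquely mapped reads of sufficient mapping quality, extended them in silico, determined peaks with MACS2 2.1.0 and Genrich 0.6.1 and removed blacklisted ones. How both callers and the inputs were combined is not given in the sources used here.

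Coordinates count the first base as 1. Gene bodies are those of GENCODE release 44, and sequences come from GRCh38 and, for promoters, RefSeq. Strings were matched without overlaps on both strands. Shares carry 95% exact binomial intervals over peaks or genes, which share libraries and neighbours. No test between conditions was made, since each has 1 library. Members and lists were chosen with earlier results of these data known. Named were all members, genes nearest to or under their peaks, genes of the related lists with a mitotic peak or most asynchronous peaks, and genes with the most similar numbers. Sequences printed by rule are 3 of the 4 mitotic peaks, the peak over a member TSS and peaks with TGACTCA, none over a UTR, so only the upstream part of the JUN peak is given. The FOS sequence and the search for TGACATCA were added after values were seen. The sequence of 1 mitotic peak with its string counts, and the mitotic peaks and bookmarked share of the upstream kinase list, are not reported here. Overlap and string steps were tested on simulated data. The alternatives changed the window, the overlap rule, the peaks used, the assignment to genes, the strings, the interval searched and the promoter distance. Scripts ran in Python 3.11.15 with pysam 0.24.0 for sequences, scipy 1.17.1 for intervals, numpy 2.4.6 and matplotlib 3.10.9.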

Additional observations from a re-analysis of the deposited data

How the results depend on the processing

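Of 49 recomputed values 28 stayed within 1.5 times the count or within the interval given in the report, and 21 moved beyond it. With the window cut to 10 kb around the gene body, 5 asynchronous peaks of 4 members were left and 0 mitotic peaks of 0 members, so that the bookmarked share was 0%, GATA strings were in 100% and TGACTCA in 0% of peaks, and 60% were in promoters. Without extension, 3 asynchronous peaks of 2 members and 0 mitotic peaks of 0 members were left, with a bookmarked share of 0%, GATA strings in 100%, TGACTCA in 0% and promoters in 66.7%. Fewer peaks entered by construction. With 100 kb, there were 56 asynchronous and 7 mitotic peaks, JUND joined the members with a mitotic peak, and the bookmarked share was again 10.7%. Only peaks at or above the median width numbered 14, of which 3 (21.4%) were bookmarked and 0% held TGACTCA, which allows up to 23.2%. In the central 200 bp of all 28 peaks TGACTCA was in 0%, since both matches lie near a peak edge. With any middle base allowed, TGANTCA was in 4 of the 28 peaks (14.3%). By the nearest TSS, 19 asynchronous peaks fell to JUN, the mitotic peaks of ATF3 fell to GARIN4, and 2 members had a mitotic peak. Reciprocal overlap of at least 50% left only the FOSL2 peak bookmarked (3.57%). Peak scores and reads were not used here, so the unknown depth limits every statement about a missing mitotic peak. No paired analysis was possible because each condition has 1 library.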
